A study of Homo sapiens with 26 samples.

Results

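The aldo-keto reductases described here are 6 genes, AKR1A1, AKR1B1, AKR1C1, AKR1C2, AKR1C3 and AKR7A2, taken by symbol from 33562 gene rows without use of their values. The RNA came from MDA-MB-231Luc cells, which carry luciferase and derive from MDA-MB-231, a triple-negative human line from a breast carcinoma, and it was sequenced as 26 libraries of 9 lines. The study asked how Aurora A kinase (AURKA) placed in the nucleus, the cytoplasm or both relates to expression and to spread in xenografts, and the xenografts are not analysed here. NLS-AURKA (clones c2 and c3) carried AURKA cDNA labelled MUT1 with a nuclear localization signal and the guide sgAURKA1. NES-AURKA (clones c1 and c2) carried the cDNA labelled MUT2 with a nuclear export signal and the guide sgAURKA2. WT-AURKA (clones c1 and c2) carried the MUT2 cDNA with no added signal and sgAURKA2. The 3 control lines, Empty, NES-Empty and NLS-Empty, carried the pLUTZ mRFP vector with no AURKA cDNA and the guide sgCon. All lines were kept in doxycycline, which turns on the cDNA through an rtTA-responsive promoter, in serum-containing MEM under normoxia. Control lines were at passages 19 to 20 and AURKA lines at passages 32 to 35. Each AURKA line is 1 clone, so passage, guide and clonal derivation cannot be told apart from the cDNA, nor guide and cDNA label from the nuclear signal. WT-AURKA c2 had 2 libraries and the other 8 lines had 3 each. Whether the libraries of 1 line were grown as separate cultures is not in the labels, so their spread may be technical.

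Aldo-keto reductases use NADPH to reduce aldehydes and ketones to alcohols. AKR1A1 (aldehyde reductase) reduces many aldehydes and glucuronate, AKR1B1 (aldose reductase) turns glucose into sorbitol and clears lipid aldehydes, and AKR7A2 reduces succinic semialdehyde and aflatoxin dialdehyde. AKR1C1, AKR1C2 and AKR1C3 are hydroxysteroid dehydrogenases. AKR1C1 inactivates progesterone, AKR1C2 inactivates dihydrotestosterone, and AKR1C3 makes testosterone and prostaglandin F compounds. Several of these genes are textbook targets of NRF2, the transcription factor that KEAP1 holds down and that oxidants and electrophiles release.

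The AKR1C genes are so alike that reads can be shared between them. Over the 969 coding bases of the GENCODE transcripts, AKR1C1 and AKR1C2 differed at 19 positions (98% identity), AKR1C1 and AKR1C3 at 83 and AKR1C2 and AKR1C3 at 87 when compared position by position. Of all 75-base windows of AKR1C1, 33.4% were identical in AKR1C2 and 7.71% in AKR1C3, and AKR1C1 and AKR1C2 shared an unbroken run of 186 bases. Between AKR1B1 and AKR1C3 identity was 60.7%. The 90 coding bases in which AKR1C1 and AKR1C2 differ most (bases 73 to 162 of the coding sequence, counted from the A of the start codon) show how little separates them. Capitals mark the 19 positions at which the 3 genes are not all alike. The sequences come from GENCODE v29, and all 3 genes lie on chromosome 10.
AKR1C1: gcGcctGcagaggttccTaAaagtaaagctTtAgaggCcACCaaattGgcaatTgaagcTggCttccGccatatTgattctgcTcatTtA
AKR1C2: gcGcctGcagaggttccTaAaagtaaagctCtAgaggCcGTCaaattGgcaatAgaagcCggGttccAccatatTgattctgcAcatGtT
AKR1C3: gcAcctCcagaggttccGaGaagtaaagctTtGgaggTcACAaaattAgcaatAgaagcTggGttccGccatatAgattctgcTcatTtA
Within this stretch AKR1C1 and AKR1C2 differ at 10 bases. How the submitters assigned reads that match several genes is not given in the sources used here, so values of AKR1C1 and AKR1C2 are uncertain one against the other. Both are also uncertain against AKR1C3, which shares 7.71% of the 75-base windows of AKR1C1 and 13.3% of those of AKR1C2.

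The DNA before the start sites of AKR1B1, AKR1C3 and AKR7A2, the members that differed between NLS-AURKA and WT-AURKA, was taken from RefSeq on GRCh38.p14. The deposited table was made on hg19 and holds no coordinates. Each has 2 listed starts, of which the one whose window is free of the gene's own GENCODE exons is shown, and the AKR7A2 window stops before an exon of the opposite gene PQLC2. They are chr7:134459240-134459489 (minus strand) for AKR1B1, chr10:5048531-5048780 (plus strand) for AKR1C3 and chr1:19312147-19312325 (minus strand) for AKR7A2. Capitals mark CCAAT boxes (CCAAT, or ATTGG on the other strand) and cores of the antioxidant response element (TGACNNNGC on either strand), the sequence that NRF2 binds with small MAF proteins.
AKR1B1: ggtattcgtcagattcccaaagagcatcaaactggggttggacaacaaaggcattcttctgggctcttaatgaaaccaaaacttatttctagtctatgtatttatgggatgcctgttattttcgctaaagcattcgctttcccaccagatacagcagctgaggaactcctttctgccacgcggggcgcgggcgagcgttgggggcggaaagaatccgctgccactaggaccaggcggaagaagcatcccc
AKR1C3: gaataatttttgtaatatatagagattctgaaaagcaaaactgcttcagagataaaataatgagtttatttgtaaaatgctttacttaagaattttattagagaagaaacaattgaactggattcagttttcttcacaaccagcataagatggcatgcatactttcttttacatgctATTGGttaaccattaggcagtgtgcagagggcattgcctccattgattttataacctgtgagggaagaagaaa
AKR7A2: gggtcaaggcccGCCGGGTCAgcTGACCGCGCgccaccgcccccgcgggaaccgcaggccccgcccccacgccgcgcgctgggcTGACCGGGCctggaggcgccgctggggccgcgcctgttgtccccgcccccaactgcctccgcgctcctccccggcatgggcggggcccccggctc
The antioxidant response element core had 3 matches before AKR7A2, which do not overlap one another, and none in the 250 bases before AKR1A1, AKR1B1, AKR1C1, AKR1C2 or AKR1C3. It occurs in 10.9% of all 35093 windows of this length in the table. The CCAAT box had 1 match before each AKR1C gene, at position -77 in AKR1C1, -81 in AKR1C2 and -73 in AKR1C3 (all on the other strand), and it occurs in 32% of windows. The AP-1 site (TGANTCA, either strand) had no match before any of the 6 genes. A match is a run of letters and says nothing of binding, and a missing match covers only these windows.

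All 6 genes were in the table, and the 4 of them that reached 1 RPKM in at least 2 libraries (AKR1A1, AKR1B1, AKR1C3 and AKR7A2) were tested among 12589 genes. RPKM is a read number scaled by transcript length and library total. Estimated depth was 12200000 to 20200000 reads per library, at which 3 reads in a 1-kb transcript make 0.149 to 0.246 RPKM. The 8 libraries lettered A to H (1 from every line but WT-AURKA c2) differed from the other 18, lettered I to Z, for example in MALAT1, a nuclear RNA that codes for no protein (174.6 to 561 RPKM in A to H libraries, 6.10 to 33.5 RPKM in I to Z libraries). AKR1A1, AKR1B1 and AKR7A2 were lower in the A to H library than in both I to Z libraries in 8 of 8 lines, with median ratios of 0.519, 0.656 and 0.524. Results are therefore also given for I to Z libraries alone. Transcripts of AURKA, the targeted gene, were at 38.4 to 105 RPKM in NLS-AURKA, 15.5 to 37.0 in NES-AURKA, 12.7 to 84.1 in WT-AURKA and 34.0 to 68.9 in control libraries, without separating the cDNA from the endogenous gene. The mesenchymal filament gene VIM was at 234 RPKM or more in every library and the hormone receptor genes ESR1 and PGR at 0.0220 RPKM or less, while the luminal keratin gene KRT8 was also present, at 28.1 to 104.0 RPKM. Summed over 7 mesenchymal and basal markers the level was 546 to 1614 RPKM in AURKA libraries and 609 to 1037 RPKM in control libraries, and over 9 luminal markers 102 to 332 RPKM in AURKA libraries and 171 to 283 RPKM in control libraries. Between AURKA and control lines 2 of 7 tested mesenchymal markers were higher, among them FN1 (1.79, limma adjusted p = 0.00250), and 2 of 7 tested luminal markers were lower, CDH1 (-1.49, adjusted p = 0.000871) and EPCAM (-1.96, adjusted p = 8.75e-06). Of all genes, 8.85% were higher and 10.4% lower. CDH1 averaged 0.104 RPKM in AURKA libraries and 3.64 RPKM in control libraries, under the 5 RPKM set for named genes. Its difference was -2.96 in A to H libraries alone, with the control lines higher. It missed the filter in I to Z libraries, so it entered the test through A to H libraries. Its call is a description. In I to Z libraries 5 luminal markers were tested, CDH1 not among them, and 1 was lower, EPCAM (-2.01, limma adjusted p = 3.48e-05). VIM was higher in NLS-AURKA than in NES-AURKA (0.83, adjusted p = 0.0327) and WT-AURKA (1.16, adjusted p = 0.00705). Of the 7 tested mesenchymal markers, 1 was higher and 2 were lower in each of these comparisons. Of all genes, 19.1% were higher and 14.1% lower against NES-AURKA, and 18.7% and 17.4% against WT-AURKA. CAV1 was lower in both (-0.50, limma adjusted p = 0.00736, and -1.08, adjusted p = 0.000183), and AXL against WT-AURKA (-0.66, adjusted p = 0.0087). A to H libraries alone gave VIM at 0.88 against NES-AURKA (adjusted p = 0.208) and 0.87 against WT-AURKA. The part of these markers in the results was not tested. Summed over 10 markers of other cell types the level was 0.866 to 3.01 RPKM in AURKA libraries and 0.803 to 1.497 RPKM in control libraries.

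AKR1B1, the aldose reductase, was lowest in both NLS-AURKA clones. Its level was 11.9, 14.0 and 19.1 RPKM in NLS-AURKA c2 and 11.6, 14.8 and 15.7 RPKM in NLS-AURKA c3. The NES-AURKA libraries had 20.4, 41.6 and 43.7 RPKM in c1 and 16.9, 30.8 and 31.2 RPKM in c2. In WT-AURKA it was at 29.2, 40.4 and 43.0 RPKM in c1 and 43.3 and 36.8 RPKM in c2. Control libraries had 13.0, 33.0 and 29.4 RPKM in Empty, 20.8, 34.0 and 33.9 RPKM in NES-Empty and 22.3, 33.0 and 29.6 RPKM in NLS-Empty. The first value of each line with 3 is from the A to H set, and that value was the lowest of its line in all 8. Within the I to Z set the NLS-AURKA libraries (14.0 to 19.1 RPKM) overlapped with none of the NES-AURKA (30.8 to 43.7), WT-AURKA (36.8 to 43.3) or control libraries (29.4 to 34.0). Across the sets they met the A to H libraries of NES-AURKA c2 (16.9 RPKM) and of Empty (13.0 RPKM). By I to Z mean the order was NES-AURKA c1 (42.6 RPKM), WT-AURKA c1 (41.7), WT-AURKA c2 (40.1), NES-Empty (33.9), NLS-Empty (31.3), Empty (31.2), NES-AURKA c2 (31.0), NLS-AURKA c2 (16.5) and NLS-AURKA c3 (15.3). The largest step between neighbours lies above NLS-AURKA, and the I to Z values of its 2 clones overlapped. Neighbours from NES-AURKA c1 down to WT-AURKA c2, and from NLS-Empty down to NES-AURKA c2, also overlapped. The line means averaged 14.5 ± 0.685 RPKM in NLS-AURKA, 30.8 ± 6.29 in NES-AURKA, 38.8 ± 1.82 in WT-AURKA (SD, n = 2 lines each) and 27.7 ± 2.29 in control lines (SD, n = 3 lines).

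In the limma fit over lines, AKR1B1 was lower in NLS-AURKA than in NES-AURKA by a log2(RPKM + 1) difference of -0.98 (SE 0.14, Benjamini-Hochberg adjusted p = 0.00122). Against WT-AURKA the difference was -1.37 (SE 0.14, adjusted p = 0.000234). Both calls held in I to Z libraries alone, at -1.15 (adjusted p = 0.000386) and -1.32 (adjusted p = 0.000218), and in all 35 fits that left out 1 library or 1 line. In A to H libraries alone, an alternative chosen after seeing the data that has 1 WT-AURKA library, neither passed, at -0.62 (adjusted p = 0.181) and -1.24 (adjusted p = 0.0824). The difference between NES-AURKA and WT-AURKA was -0.39 (SE 0.14, adjusted p = 0.151). In bulk RNA, fewer cells with a transcript and less of it per cell cannot be told apart.

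**Figure D1:**
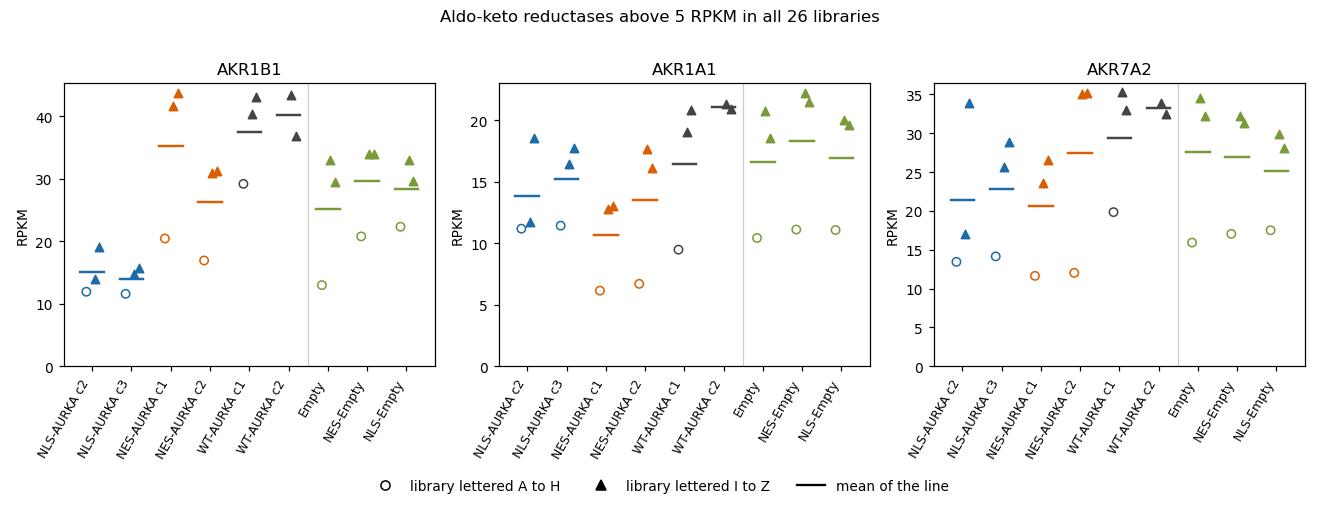
Deposited RPKM of AKR1B1, AKR1A1 and AKR7A2 (vertical axes, linear, from 0) in each library of the 9 lines, AURKA lines left of the grey line and control lines right of it; open circles are A to H libraries, filled triangles I to Z libraries, and bars the mean of each line. The NLS-AURKA libraries of AKR1B1 sit between 11.6 and 19.1 RPKM, and the A to H library is the lowest of its line for all 3 genes.

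AKR1A1 and AKR7A2 were the other abundant members. AKR1A1 ranged over 6.15 to 22.2 RPKM in the 26 libraries, with a median of 17.0, and AKR7A2 over 11.6 to 35.3 RPKM, with a median of 28.5. AKR1A1 averaged 14.5 ± 0.976 RPKM in NLS-AURKA, 12.1 ± 2.01 in NES-AURKA, 18.8 ± 3.29 in WT-AURKA (SD, n = 2 lines each) and 17.3 ± 0.903 in control lines (SD, n = 3 lines). Its I to Z values were 12.8 to 17.6 RPKM in NES-AURKA and 19.1 to 21.3 RPKM in WT-AURKA, which do not overlap. AKR1A1 was lower in NES-AURKA than in WT-AURKA over all libraries, at -0.64 (SE 0.15, limma adjusted p = 0.0417). That call was lost in I to Z libraries alone (-0.45, adjusted p = 0.0885) and in 21 of 35 fits that left out a library or a line. AKR1A1 was higher in NLS-AURKA than in NES-AURKA over all libraries, without passing (0.31, SE 0.15, limma adjusted p = 0.137). In A to H libraries alone that difference was 0.73, with 11.2 and 11.4 RPKM in NLS-AURKA and 6.15 and 6.70 RPKM in NES-AURKA.

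AKR7A2 averaged 22.2 ± 1.00 RPKM in NLS-AURKA, 24.0 ± 4.83 in NES-AURKA, 31.3 ± 2.71 in WT-AURKA (SD, n = 2 lines each) and 26.5 ± 1.24 in control lines (SD, n = 3 lines). Its I to Z values reached from 17.1 to 33.8 RPKM in NLS-AURKA, across those of WT-AURKA at 32.5 to 35.3 RPKM. NLS-AURKA c2 alone held 2 I to Z libraries at 17.1 and 33.8 RPKM, so its own libraries were as far apart as the groups. Over all libraries AKR7A2 was lower in NLS-AURKA than in WT-AURKA by -0.54 (SE 0.13, limma adjusted p = 0.0100). That call was lost in I to Z libraries (-0.38, adjusted p = 0.0693) and without the A to H library of NLS-AURKA c3 (-0.39, adjusted p = 0.106), the A to H library of NES-AURKA c2 (adjusted p = 0.0919), the line WT-AURKA c2 (adjusted p = 0.0796) or the line NLS-AURKA c2 (adjusted p = 0.0797). WT-AURKA has 1 A to H library among 5 and the other constructs 2 among 6, so for genes low in that set the mixture moves with the comparison. With line values adjusted for the letter set, an alternative chosen after seeing the data, both calls held (AKR7A2 at -0.38, adjusted p = 0.0314, and AKR1A1 at -0.51, adjusted p = 0.0410).

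AKR1C3, the steroid and prostaglandin reductase, was highest in NES-AURKA and next in NLS-AURKA. NES-AURKA c1 had 2.27, 4.84 and 4.90 RPKM, and NES-AURKA c2 had 2.79, 3.54 and 2.44 RPKM. NLS-AURKA libraries had 1.76, 2.44 and 2.13 RPKM in c2 and 1.20, 1.84 and 2.26 RPKM in c3. In WT-AURKA the level was 0.581, 0.768 and 0.523 RPKM in c1 and 0.443 and 0.590 RPKM in c2. All 6 NES-AURKA and all 6 NLS-AURKA libraries lay above all 5 WT-AURKA libraries, and the NES-AURKA and NLS-AURKA ranges overlapped. The control lines were not alike, with 0.0391, 0.279 and 0.355 RPKM in Empty, 0.678, 1.22 and 1.25 RPKM in NES-Empty and 0.690, 0.441 and 0.621 RPKM in NLS-Empty. NES-Empty alone overlapped with NLS-AURKA, through its I to Z libraries and the A to H library of NLS-AURKA c3. By I to Z mean the order was NES-AURKA c1 (4.87 RPKM), NES-AURKA c2 (2.99), NLS-AURKA c2 (2.29), NLS-AURKA c3 (2.05), NES-Empty (1.24), WT-AURKA c1 (0.645), NLS-Empty (0.531), WT-AURKA c2 (0.517) and Empty (0.317). Neighbours from NES-AURKA c2 down to NLS-AURKA c3, and from WT-AURKA c1 down to WT-AURKA c2, overlapped in their I to Z values.

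AKR1C3 averaged 1.94 ± 0.241 RPKM in NLS-AURKA, 3.46 ± 0.765 in NES-AURKA, 0.570 ± 0.0758 in WT-AURKA (SD, n = 2 lines each) and 0.620 ± 0.414 in control lines (SD, n = 3 lines). NES-AURKA exceeded WT-AURKA by 1.47 (SE 0.21, limma adjusted p = 0.0102) and NLS-AURKA exceeded WT-AURKA by 0.89 (SE 0.21, adjusted p = 0.0102) on the log2(RPKM + 1) scale, which understates fold changes this close to 1 RPKM. In ratios of mean RPKM these are 6.07 and 3.40. I to Z libraries alone gave 1.61 (adjusted p = 0.0141) for NES-AURKA and 1.00 (adjusted p = 0.0122) for NLS-AURKA. A to H libraries alone gave 1.15 (adjusted p = 0.316) for NES-AURKA and 0.64 (adjusted p = 0.304) for NLS-AURKA. Without the line WT-AURKA c2 neither passed (adjusted p = 0.109 and 0.0706), and without NLS-AURKA c2 the second did not (adjusted p = 0.0795). Between NLS-AURKA and NES-AURKA the difference was -0.58 (SE 0.21, adjusted p = 0.0624). AKR1C3 passed the filter on low values through NES-AURKA, NLS-AURKA and the I to Z libraries of NES-Empty, and was under 1 RPKM in every WT-AURKA library. With no filter neither difference from WT-AURKA passed (adjusted p = 0.0508 for NES-AURKA and 0.0615 for NLS-AURKA).

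**Figure D2:**
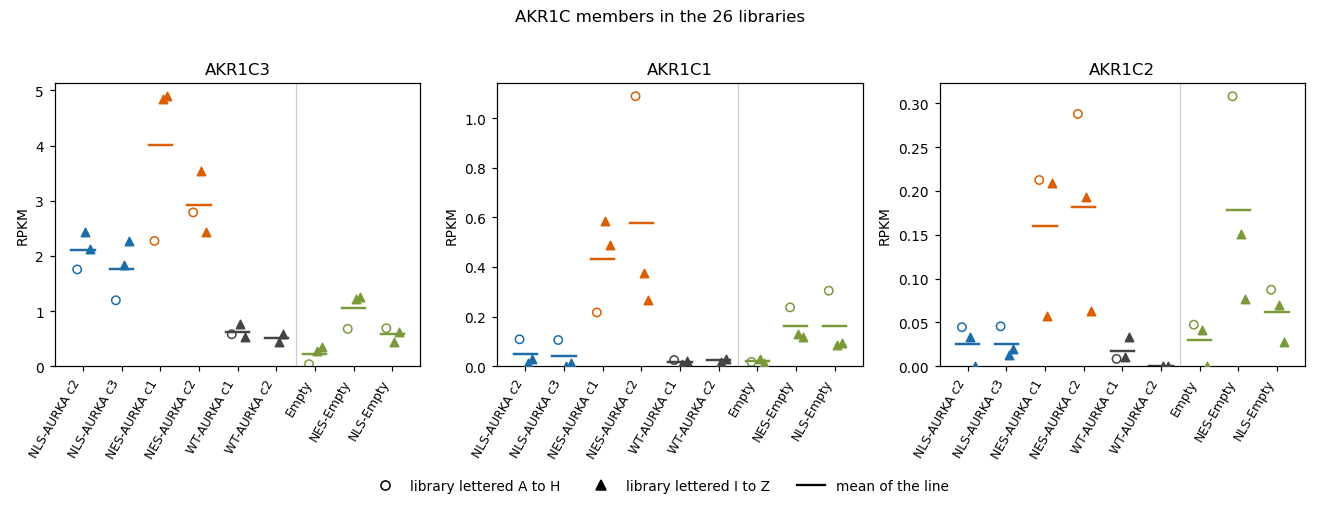
Deposited RPKM of AKR1C3, AKR1C1 and AKR1C2 (vertical axes, linear, from 0, each with its own scale) in each library of the 9 lines, drawn as for the other members. AKR1C3 reaches 4.90 RPKM in NES-AURKA c1, and AKR1C1 and AKR1C2 stay at or under 1.09 and 0.308 RPKM.

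AKR1C1 and AKR1C2 were near the limit of detection. AKR1C1 exceeded what 3 reads in 1 kb would give in 8 of 26 libraries and AKR1C2 in 3 of 26, and neither passed the filter. Unlike the abundant members, they were higher in the A to H library than in both I to Z libraries in 6 of 8 lines (AKR1C1, median ratio 2.64) and 7 of 8 lines (AKR1C2, median ratio 2.27), while AKR1C3 was lower in 5 of 8 (median ratio 0.675). AKR1C1 was at 0 to 0.109 RPKM in NLS-AURKA, 0.217 to 1.09 RPKM in NES-AURKA, 0.00764 to 0.0307 RPKM in WT-AURKA and 0.0146 to 0.305 RPKM in control libraries. The highest value, 1.09 RPKM, was the A to H library of NES-AURKA c2, and the other 2 libraries of that clone had 0.374 and 0.267 RPKM. AKR1C2 was at 0.0456 RPKM or less in NLS-AURKA, 0.0575 to 0.288 RPKM in NES-AURKA, 0.0337 RPKM or less in WT-AURKA and 0.308 RPKM or less in control libraries. Both WT-AURKA c2 libraries are listed at 0 for AKR1C2. Its listed values include 4.44e-36 RPKM in 1 NLS-AURKA c2 library and 1.96e-19 RPKM in 1 Empty library, far below what 1 read is worth.

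With no filter on low genes, AKR1C1 was lower in NLS-AURKA than in NES-AURKA by -0.50 (SE 0.07, limma adjusted p = 0.00746 over 33562 genes) and higher in NES-AURKA than in WT-AURKA by 0.53 (SE 0.07, adjusted p = 0.0315). AKR1C3 was highest in NES-AURKA too, so the part of reads shared with it in these AKR1C1 values cannot be told. AKR1C2 did not pass in either comparison (adjusted p = 0.0988 and 0.169), and the AKR1C3 differences from WT-AURKA were lost in the same fit. AKR1C3 made up 37.5% to 99.3% of the summed RPKM of the 3 AKR1C genes, and its share was lowest in the A to H library of Empty, where the sum was 0.104 RPKM. When the 3 genes were summed, an alternative chosen after seeing the data that takes them as 1 row, NES-AURKA exceeded WT-AURKA by 1.65 (SE 0.24, adjusted p = 0.0110) and NLS-AURKA exceeded WT-AURKA by 0.90 (SE 0.24, adjusted p = 0.0175). The sum was lower in NLS-AURKA than in NES-AURKA by -0.75 (SE 0.24, adjusted p = 0.0399), a difference that AKR1C3 alone did not pass.

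Counted over the 4 tested members, 1 passed between NLS-AURKA and NES-AURKA (AKR1B1, lower), a comparison in which 33.2% of all genes tested passed. Between NLS-AURKA and WT-AURKA 3 passed (AKR1B1 and AKR7A2 lower, AKR1C3 higher), where 36.1% of all genes passed. Between NES-AURKA and WT-AURKA 2 passed (AKR1C3 higher, AKR1A1 lower), where 4.87% of all genes passed. The comparisons with WT-AURKA share its 2 lines. AKR1C3 reached 1 RPKM in NES-AURKA, NLS-AURKA and the I to Z libraries of NES-Empty (1.22 and 1.25 RPKM), and in no WT-AURKA library. Its calls here are a description, and with no filter on low genes they were lost. In I to Z libraries alone AKR1B1 passed between NLS-AURKA and NES-AURKA, AKR1B1 and AKR1C3 between NLS-AURKA and WT-AURKA, and AKR1C3 between NES-AURKA and WT-AURKA. Of all genes in that set, 20.5% were higher and 18.8% lower in the first comparison. These shares were 21.2% and 18.9% in the second, and 2.27% and 2.84% in the third. AKR1A1 was the 1 member that passed in any of the 3 in A to H libraries alone.

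Between all 6 AURKA lines and the 3 control lines, 0 of 4 members passed in limma (0 also at an unadjusted p under 0.05), where 19.2% of all genes passed. AKR1C3 came nearest, at 1.99 ± 1.34 RPKM in AURKA lines (SD, n = 6 lines) and 0.620 ± 0.414 RPKM in control lines (SD, n = 3 lines), a difference of 0.78 (SE 0.36, adjusted p = 0.155). With the matched control as a block, it passed (0.78, SE 0.14, adjusted p = 0.00545), and likewise in a fit of all libraries with their correlation within a line (0.82, SE 0.23, adjusted p = 0.00846). In both of these fits the number of all genes called stayed close in ratio to the 2423 of the main fit. AKR1B1 averaged 28.0 ± 11.5 RPKM in AURKA lines (SD, n = 6 lines) and 27.7 ± 2.29 RPKM in control lines (SD, n = 3 lines). The AURKA lines lay on both sides of the control lines, with NLS-AURKA below and WT-AURKA above.

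**Figure D3:**
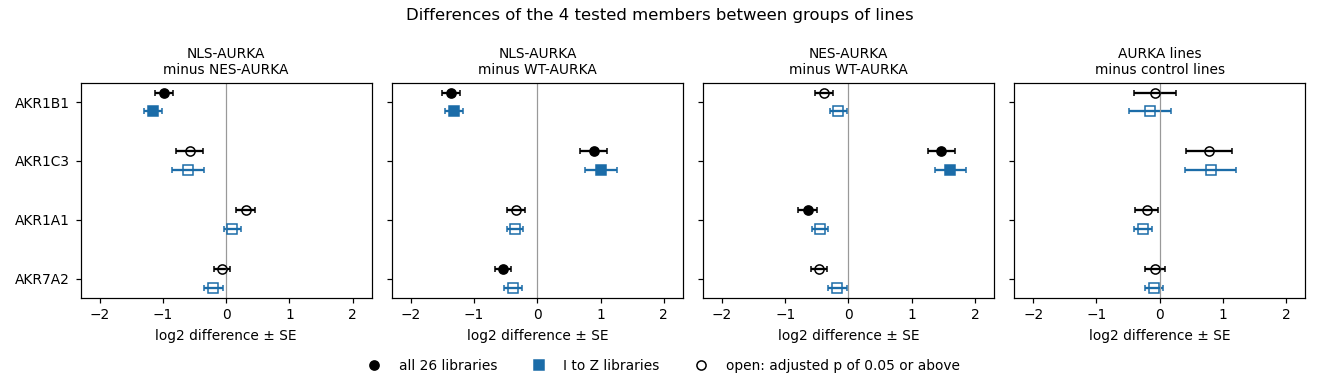
Differences in log2(RPKM + 1) of the 4 tested members (horizontal axis, mean ± SE from limma) in 4 comparisons of lines; circles use all 26 libraries, squares the I to Z libraries, and open symbols have an adjusted p of 0.05 or above. AKR1B1 lies at -0.98 and -1.37 and AKR1C3 at 0.89 and 1.47 in the comparisons they passed.

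Each clone was also set against the control line with the same signal, over libraries. A call here needed an adjusted p under 0.05 and an absolute log2 difference of at least 1, and these p-values rest on how far libraries of the same line lie apart. AKR1C3 in NES-AURKA c1 against NES-Empty was the 1 member called, at 1.25 (SE 0.20, limma adjusted p = 0.000184) (in both directions together, 4.43% of all genes were called). AKR1C3 was also higher in NES-AURKA c2 than in NES-Empty (0.94, adjusted p = 0.00414), in NLS-AURKA c2 than in NLS-Empty (0.97, adjusted p = 0.00159) and in NLS-AURKA c3 than in NLS-Empty (0.79, adjusted p = 0.00876), each short of a log2 difference of 1. Over all genes these 3 comparisons called 2.83%, 5.75% and 5.13%. In WT-AURKA c1 and c2 it differed from Empty by 0.41 (adjusted p = 0.216) and 0.32 (adjusted p = 0.495), in comparisons that called 3.53% and 3.19% of all genes.

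AKR1B1 in NLS-AURKA c2 and c3 differed from NLS-Empty by -0.88 (SE 0.34, limma adjusted p = 0.0788) and -0.96 (SE 0.34, adjusted p = 0.0611). With a term for the letter set the same differences had an SE of 0.15 and adjusted p = 0.000141 and 6.83e-05, still short of a log2 difference of 1. In WT-AURKA c1 and c2 it differed from Empty by 0.64 (adjusted p = 0.264) and 0.75 (adjusted p = 0.272). Called by limma in both clones of a construct were 0 of 4 members for NLS-AURKA (4.51% of all genes), NES-AURKA (1.70%) and WT-AURKA (2.62%). At an unadjusted p under 0.05 in both clones the members were 2, 1 and 0 in the same order, where 22.6%, 12.9% and 17.3% of all genes reached it. Between the 2 clones of a construct limma called 0 of 4 members and 0 had an unadjusted p under 0.05, where it called 1.08% of all genes for NES-AURKA and 0 genes for NLS-AURKA and WT-AURKA.

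The change from the matched control was then compared between constructs, over libraries and with 1 control line per construct. These p-values too rest on how far libraries of the same line lie apart. For AKR1B1 the change was lower in NLS-AURKA than in WT-AURKA by -1.61 (SE 0.42, limma adjusted p = 0.0195), the 1 member called in a comparison that called 8.16% of all genes. Without the A to H library of Empty, in which AKR1B1 was lowest among controls, it was -1.21 (adjusted p = 0.0683), and without either I to Z library of NLS-Empty it was -1.50 (adjusted p = 0.0621) and -1.57 (adjusted p = 0.0507). With a term for the letter set 2 members passed, AKR1B1 and AKR1C3, and genes called rose from 1027 to 3080. For AKR1C3 the change was higher in NLS-AURKA than in WT-AURKA by 0.56 with the term (SE 0.19, limma adjusted p = 0.0371). Without the term it did not pass, at 0.51 (SE 0.25, adjusted p = 0.253). Between NLS-AURKA and NES-AURKA the change of AKR1B1 differed by -0.93 (SE 0.41, limma adjusted p = 0.219, with 7.15% of all genes called). With the letter-set term it was the same -0.93 (SE 0.19, adjusted p = 0.00132), and genes called rose from 900 to 2828. For AKR1C3 the change in NES-AURKA exceeded that in WT-AURKA by 0.73 (SE 0.25, limma adjusted p = 0.385, with 0.445% of all genes called). The fit with the term gave 0.78 (SE 0.19, adjusted p = 0.0333), and genes called rose from 56 to 329.

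The other genes of the NRF2 pathway were read from lists written with earlier results of these data known. Of 29 NRF2 target genes, 25 were tested. Between NLS-AURKA and WT-AURKA, 11 were lower and 3 higher, with a list median of -0.35, while 17.4% of all genes were lower and 18.7% higher, with a median of 0.01. NLS-AURKA against NES-AURKA gave 9 lower and 4 higher (median -0.28), with 14.1% of all genes lower and 19.1% higher (median 0.05). In NES-AURKA against WT-AURKA limma called 0 of the 25, and 6 had an unadjusted p under 0.05 (3.30% of all genes were lower and 1.56% higher), and AURKA lines against control lines gave 2 lower and 4 higher (10.4% and 8.85% of all genes). In I to Z libraries the NLS-AURKA counts were 11 lower and 3 higher against WT-AURKA (18.9% and 21.2% of all genes) and 11 lower and 4 higher against NES-AURKA (18.8% and 20.5%). In A to H libraries alone, which called few genes, limma called 0 of 25 against WT-AURKA (6 at an unadjusted p under 0.05), with 1.65% of all genes lower and 1.74% higher. Against NES-AURKA 1 was lower and 1 higher there, with 1.87% of all genes lower and 6.34% higher. The list medians in that set were -0.35 and -0.29.

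SRXN1 (sulfiredoxin) was at 15.4 ± 0.457 RPKM in NLS-AURKA, 33.1 ± 0.396 in NES-AURKA and 34.0 ± 3.35 in WT-AURKA (SD, n = 2 lines each). It was lower in NLS-AURKA than in NES-AURKA by -1.05 (limma adjusted p = 0.000180) and than in WT-AURKA by -1.09 (adjusted p = 0.000117). NQO1, a quinone reductase that also draws on NADPH, was at 25.8 ± 2.53, 39.3 ± 2.20 and 49.7 ± 2.82 RPKM in the same order. NQO1 was lower in NLS-AURKA than in NES-AURKA (-0.61, adjusted p = 0.0125) and WT-AURKA (-0.95, adjusted p = 0.00135). SRXN1 in A to H libraries alone passed against NES-AURKA (-1.01, adjusted p = 0.0283) but not WT-AURKA (-0.78, adjusted p = 0.0945), and NQO1 against neither (adjusted p = 0.0766 and 0.0856).

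ME1, the cytosolic NADPH-forming malic enzyme, was lower in NLS-AURKA than in NES-AURKA by -1.06 (limma adjusted p = 0.000836) and than in WT-AURKA by -0.99 (adjusted p = 0.000981). FTH1, the ferritin heavy chain, whose many processed copies in the genome make its level uncertain, was lower in NLS-AURKA than in WT-AURKA by -1.21 (adjusted p = 0.000744). These calls were lost in A to H libraries, at -0.82 (adjusted p = 0.174) and -0.40 (adjusted p = 0.607) for ME1 and -0.61 (adjusted p = 0.415) for FTH1. CBR3, a carbonyl reductase of the short-chain family, moved the other way. It averaged 10.9 ± 1.62 RPKM in NLS-AURKA, 4.94 ± 0.959 in NES-AURKA and 4.71 ± 0.587 in WT-AURKA, and was higher in NLS-AURKA than in either (0.95, adjusted p = 0.000760, and 0.98, adjusted p = 0.000582). Neither passed in A to H libraries (0.60, adjusted p = 0.0736, and 0.30, adjusted p = 0.421). Among the members, AKR1B1 and AKR7A2 were on the side of the 11 lower targets in NLS-AURKA against WT-AURKA, and AKR1C3 on the side of the 3 higher ones.

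Of 9 regulators of NRF2, all tested, 2 were higher and 1 lower in NLS-AURKA against either other construct. Over all genes 19.1% were higher and 14.1% lower against NES-AURKA, and 18.7% and 17.4% against WT-AURKA. The list medians were 0.000309 and -0.00796, where those of all genes were 0.05 and 0.01. In I to Z libraries 1 was higher and 2 lower against NES-AURKA (20.5% and 18.8% of all genes). Against WT-AURKA 2 were higher and 2 lower there (21.2% and 18.9% of all genes). KEAP1, the adaptor that sends NRF2 to degradation, averaged 28.6 ± 2.54 RPKM in NLS-AURKA, 19.6 ± 1.51 in NES-AURKA and 19.5 ± 1.76 in WT-AURKA. It was higher in NLS-AURKA by 0.50 (limma adjusted p = 0.00581) and 0.48 (adjusted p = 0.00605). BACH1, a repressor at antioxidant response elements, averaged 26.5 ± 5.46, 14.0 ± 3.09 and 11.0 ± 1.36 RPKM in the same order. Its differences were 0.89 (adjusted p = 0.00675) against NES-AURKA, lost in I to Z libraries (0.60, adjusted p = 0.127), and 1.18 (adjusted p = 0.00153) against WT-AURKA. MAFK, a small MAF partner of NRF2, was lower by -0.45 (adjusted p = 0.00805) and -0.47 (adjusted p = 0.00609). NFE2L2, the NRF2 gene, did not pass, at -0.15 (adjusted p = 0.215) and -0.21 (adjusted p = 0.0868). BACH1 passed against both in A to H libraries (1.46, adjusted p = 0.0263, and 2.23, adjusted p = 0.0285), while KEAP1 (adjusted p = 0.105 and 0.156) and MAFK (-0.20, adjusted p = 0.302, and -0.57, adjusted p = 0.0743) did not.

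**Figure D4:**
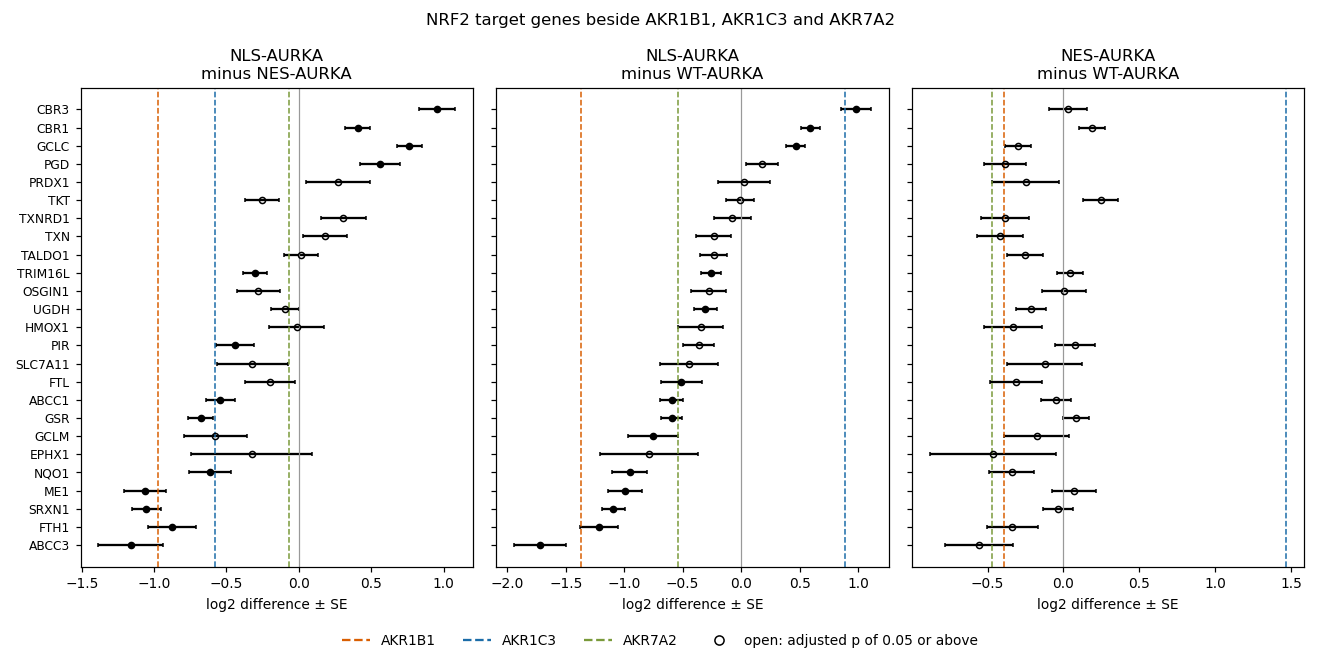
Differences in log2(RPKM + 1) (horizontal axes, mean ± SE from limma, each panel with its own scale) of the 25 tested NRF2 target genes in 3 comparisons of constructs, ordered by NLS-AURKA minus WT-AURKA; dashed lines are AKR1B1, AKR1C3 and AKR7A2, and open circles have an adjusted p of 0.05 or above. ABCC3 is lowest at -1.72 and CBR3 highest at 0.98 in the middle panel, with AKR1B1 at -1.37 and AKR1C3 at 0.89.

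Enzymes that work beside the members were mixed, and their counts are to be read against the shares of all genes given above (19.1% higher and 14.1% lower in NLS-AURKA against NES-AURKA, 18.7% higher and 17.4% lower against WT-AURKA). The same shares in I to Z libraries alone were 20.5% higher and 18.8% lower, and 21.2% higher and 18.9% lower. In the polyol pathway SORD, which oxidises the sorbitol that AKR1B1 makes, was higher in NLS-AURKA (11.6 ± 0.0656 RPKM) than in NES-AURKA (6.23 ± 0.284 RPKM) and WT-AURKA (5.40 ± 0.111 RPKM), by 0.79 (limma adjusted p = 0.000834) and 0.95 (adjusted p = 0.000305). HK2, the hexokinase that competes for glucose, was also higher in NLS-AURKA, by 1.06 (adjusted p = 0.00105) and 0.88 (adjusted p = 0.00229). Of the 9 tested genes of polyol and hexose handling, 3 were higher and 0 lower in NLS-AURKA against NES-AURKA, and 3 higher and 1 lower against WT-AURKA. In I to Z libraries these were 3 higher and 3 lower, and 4 higher and 2 lower. Of 13 short-chain carbonyl reductases, 5 were higher and 1 lower against NES-AURKA and 4 higher and 2 lower against WT-AURKA, and in I to Z libraries 3 higher and 2 lower, and 4 higher and 2 lower. CBR1, which shares substrates with the aldo-keto reductases, averaged 20.3 ± 0.583 RPKM in NLS-AURKA, 15.1 ± 0.127 in NES-AURKA and 12.7 ± 0.448 in WT-AURKA, and was higher in NLS-AURKA than in either (adjusted p = 0.00622 and 0.000891). Among SORD, HK2 and CBR1, only HK2 against NES-AURKA passed in A to H libraries (1.03, adjusted p = 0.0211), with HK2 at 0.52 (adjusted p = 0.148) and CBR1 at 0.31 (adjusted p = 0.480) against WT-AURKA.

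Of 9 tested prostaglandin enzymes, 1 was higher and 3 lower in NLS-AURKA against either other construct. PTGR1, which reduces prostaglandin and leukotriene enones, averaged 3.92 ± 0.133 RPKM in NLS-AURKA, 12.4 ± 2.43 in NES-AURKA and 15.6 ± 1.42 in WT-AURKA, with differences of -1.41 (limma adjusted p = 0.000219) and -1.75 (adjusted p = 7.5e-05). Of 11 tested steroid enzymes, 2 were higher and 3 lower in NLS-AURKA against either, and of 10 tested in I to Z libraries 1 was higher, with 2 lower against NES-AURKA and 4 lower against WT-AURKA. STS, the steroid sulfatase, was at 2.34 ± 0.0165 RPKM in NLS-AURKA, 8.95 ± 0.571 in NES-AURKA and 4.56 ± 0.192 in WT-AURKA. STS was lower in NLS-AURKA than in NES-AURKA by -1.57 (adjusted p = 1.32e-05) and higher in NES-AURKA than in WT-AURKA by 0.83 (adjusted p = 0.00542). Of 14 tested aldehyde dehydrogenases, 4 were higher and 3 lower against NES-AURKA and 3 higher and 4 lower against WT-AURKA. ALDH3A2, the fatty aldehyde dehydrogenase, was lower in NLS-AURKA (7.40 ± 0.215 RPKM) than in WT-AURKA (15.3 ± 0.749 RPKM) by -0.96 (adjusted p = 0.000900). PTGR1 against WT-AURKA (-1.81, adjusted p = 0.0415) and STS against NES-AURKA (-1.52, adjusted p = 0.0140) passed in A to H libraries. PTGR1 against NES-AURKA (adjusted p = 0.0705), STS in NES-AURKA against WT-AURKA (adjusted p = 0.283) and ALDH3A2 (adjusted p = 0.456) did not. Against WT-AURKA the median differences of these lists in NLS-AURKA were -0.12 (polyol and hexose, below 0 although more of its members were called higher), -0.02 (carbonyl reductases), -0.26 (prostaglandin), -0.05 (steroid) and -0.19 (aldehyde dehydrogenases), where that of all genes was 0.01.

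Over the 9 line means the members did not vary together as 1 group. AKR1A1 and AKR7A2 went together (Pearson r = 0.82 on the log2 scale), as did AKR1C1 and AKR1C2 (r = 0.87) and AKR1C1 and AKR1C3 (r = 0.73), while AKR1A1 and AKR1C3 were opposed (r = -0.84). AKR1B1 was related to AKR1C3 at r = -0.27. In I to Z libraries these values were 0.73, 0.88, 0.75, -0.86 and -0.21. Lines share their letter-set mixture, and AKR1C genes share sequence, so these are descriptions over 9 points. Among 12585 other tested genes, those with line means most like AKR1B1 were SLC38A6 (r = 0.99), CLN3 (r = 0.98) and CTSB (r = 0.98). CTSB, the lysosomal protease cathepsin B, averaged 15.6 RPKM in NLS-AURKA, 49.2 in NES-AURKA, 65.1 in WT-AURKA and 46.0 in control lines.

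The genes most like AKR1C3 were MXD4, KDM5A and ZNF385A (r = 0.96, 0.94 and 0.94), of which KDM5A, a histone H3 lysine demethylase, averaged 3.86 RPKM in NLS-AURKA, 4.97 in NES-AURKA, 2.88 in WT-AURKA and 3.14 in control lines. For AKR1C1 they were PLCG2, APCS and PDHA1 (r = 0.98, 0.95 and 0.94), and for AKR1C2 IFIT1, RAP1GAP2 and ITGA5 (r = 0.95, 0.88 and 0.88). AKR1A1 was most like HNRNPC, C1orf43 and C16orf13 (r = 0.97, 0.96 and 0.95), and AKR7A2 most like AXL, SEP15 and GTF2F2 (r = 0.99, 0.98 and 0.98). In I to Z libraries alone HNRNPC, C1orf43 and C16orf13 were at r = 0.56, 0.91 and 0.73 with AKR1A1, and SLC38A6, CLN3 and CTSB stayed at 0.96, 0.97 and 0.96 with AKR1B1. AXL, SEP15 and GTF2F2 were at 0.82, 0.91 and 0.73 with AKR7A2 there. MXD4, KDM5A and ZNF385A were at 0.81, 0.89 and 0.93 with AKR1C3. For AKR1C1 the values were 0.93, 0.96 and 0.91, and for AKR1C2 0.98, 0.78 and 0.77, in the order named above.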

How the data were processed

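The authors deposited 1 table of RPKM values for 33562 gene symbols in 26 libraries. The tools HISAT2, SAMtools and Partek and the build hg19 are named per the submitters' processing notes, and the KAPA mRNA Hyper Prep kit, with 500 ng RNA as input, per the labels' protocols. For tool versions, annotation, strand and reads that match several genes, the setting is not given in the sources used here. RPKM values are not counts, so limma (version 3.58.1, R 4.3.3) with a mean-variance trend was run on log2(RPKM + 1) for 12589 genes that reached 1 RPKM in at least 2 libraries. Lines were compared on 1 value per line, the mean over its libraries, in a fit with 2 arms and a fit with 4 groups. Single clones and changes from the matched control were compared over libraries with 1 coefficient per line. P-values were adjusted over all genes tested (Benjamini-Hochberg, threshold 0.05), and the fits were tested on simulated data.

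Depth was estimated from the value that 1 read is worth in 3474 genes with a single GENCODE transcript, and the floor of 3 reads covers counting error only. Library titles are lettered, and A to H and I to Z were treated as possible batches. No 2 libraries held identical values. Members and lists were chosen with earlier results of these data known. 1 gene of the NRF2 target list is not reported here and was left out of the list. The named genes are the 6 members, NFE2L2, KEAP1 and NQO1, up to 3 called genes per list and line comparison whose higher group averages at least 5 RPKM, and the 3 genes most like each member over line means. Alternatives were other pseudocounts, filters, scalings, blocks, letter-set terms, each letter set alone and leaving out each library or line. Proteins and genome sequence on hg19 were not used here.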

Additional observations from a re-analysis of the deposited data

Results flagged for a closer look

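The change of AKR1B1 from the matched control differed between constructs by a test of the difference itself, NLS-AURKA minus WT-AURKA, at -1.61 on the log2(RPKM + 1) scale (limma adjusted p = 0.0195). That fit ran over libraries, so its p-value rests on the spread of libraries within a line. The call was lost in 3 of 26 fits that left out 1 library. The NLS-AURKA libraries of c2 and c3 were lower than those of NLS-Empty within either letter set, and the WT-AURKA libraries were higher than those of Empty. Over the 6 AURKA lines, no member had a highest or lowest line mean far enough from the other 5 to stand apart.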

How the results depend on the processing

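Over 2332 recomputed values of 58 results, 2113 were the same and 14 turned round. For a difference, the same means that it kept its direction and its side of the threshold. For a count of members or genes, it means a count equal or close in ratio to that of the main fit. AKR1B1 in NLS-AURKA against NES-AURKA and against WT-AURKA kept its call in every setting run but 1, A to H libraries alone. AKR1C3 in NLS-AURKA and in NES-AURKA against WT-AURKA also lost its call with no filter on low genes (limma adjusted p = 0.0615 and 0.0508). The direction turned in differences that did not pass over all libraries. For AURKA lines against control lines, leaving out 1 library or line gave -0.203 to 0.0946 for AKR1B1 and -0.188 to 0.00676 for AKR7A2. AKR7A2 in NLS-AURKA against NES-AURKA was 0.20 in A to H libraries and -0.314 to 0.0962 without 1 library or line, and AKR1A1 in NLS-AURKA against WT-AURKA was 0.23 in A to H libraries. AKR1B1 in NES-AURKA c1 and c2 against NES-Empty ranged over -0.0218 to 0.548 and -0.405 to 0.103 without 1 library.

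The number of members called moved as follows. In these settings the number of all genes called stayed close in ratio to the main fit, except where given in the next paragraph. The main fits called 19.2%, 33.2%, 36.1% and 4.87% of all genes in the line comparisons, in the order below. Fits without 1 library or line called 902 to 2672, 2201 to 5453, 2452 to 6257 and 20 to 2704 genes in the same order. For AURKA lines against control lines it was 1 with the matched control as a block and with the correlation of libraries within a line. For NLS-AURKA against NES-AURKA it was 2 with no filter, quantile normalization, the summed AKR1C genes and the correlation, and 1 to 3 without 1 library or line. Under quantile normalization 17.1% of all genes were higher and 16.6% lower. For NLS-AURKA against WT-AURKA it was 2 in I to Z libraries, 0 in A to H libraries and 1 to 4 without 1 library or line. For NES-AURKA against WT-AURKA it was 1 with no filter, a filter of 5 RPKM, median-of-ratios scaling, quantile normalization, I to Z libraries and the correlation, 0 in A to H libraries, and 0 to 4 without 1 library or line. For changes from the matched control it was 1 in NLS-AURKA minus NES-AURKA (both scalings, I to Z libraries, letter-set term), 2 in NLS-AURKA minus WT-AURKA and 1 in NES-AURKA minus WT-AURKA (I to Z libraries, letter-set term), and 0 to 1 for the last 2 without 1 library. The main fits called 7.15%, 8.16% and 0.445% of all genes in this order. Fits without 1 library called 693 to 1257 and 33 to 90 genes in the last 2. For both clones against the matched control it was 1 with a pseudocount of 0.1 in NLS-AURKA and NES-AURKA and 1 with quantile normalization in NES-AURKA, which ranged over 0 to 1 without 1 library. The main fits called 4.51% of all genes for NLS-AURKA and 1.70% for NES-AURKA, the latter at 191 to 242 genes without 1 library. The cause of these moves was not tested.

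Counts over all genes moved too. In A to H libraries alone the line comparisons called 1472 genes (2423 over all libraries) for AURKA against control, 979 (4180) for NLS-AURKA against NES-AURKA, 405 (4547) for NLS-AURKA against WT-AURKA and 0 (613) for NES-AURKA against WT-AURKA, the last at 1273 with the correlation within a line. Changes from the matched control called 900, 1027 and 56 genes for NLS-AURKA minus NES-AURKA, NLS-AURKA minus WT-AURKA and NES-AURKA minus WT-AURKA. These were 4009, 4144 and 850 in I to Z libraries, 2828, 3080 and 329 with the letter-set term, and 472, 523 and 15 with the filter of 5 RPKM, and the last was 87 with no filter. Calls in both clones numbered 568, 214 and 330 for NLS-AURKA, NES-AURKA and WT-AURKA, and 1024, 441 and 609 with a pseudocount of 0.1.

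No paired analysis was possible because the labels give the libraries no replicate numbers. The letter-set term and the matched-control block, which did change calls, rest on library letters and on the signal of the lines. An estimated 12200000 to 20200000 reads per library leave AKR1C1 and AKR1C2 near the limit of detection.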

Other observations

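Of 10 other aldo-keto reductase genes in the table, 1 was tested. KCNAB2, a potassium channel subunit of the same fold, was lower in AURKA lines than in control lines by -0.72 (limma adjusted p = 0.0244), at 1.33 RPKM in AURKA lines and 2.87 RPKM in control lines. In A to H libraries alone that call was lost (-0.59, adjusted p = 0.0697), and in I to Z libraries it held (-0.78, adjusted p = 0.0422). It was named after its values were seen. AKR1E2, which reduces 1,5-anhydrofructose in mice, did not pass the filter and was likewise named after its values were seen. It was listed at 0.330 to 0.880 RPKM in NLS-AURKA, 0.590 to 1.30 RPKM in NES-AURKA c2, 0.222 to 0.795 RPKM in WT-AURKA and 0.0203 to 0.119 RPKM in control libraries. NES-AURKA c1 stood outside the other AURKA lines, at 0, 0 and 0.0290 RPKM. The values near or below what 3 reads in 1 kb make cannot be told from 0.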
